A study of Mus musculus with 1183 samples.

Results

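The chemokines Cxcl1, Cxcl2, Cxcl3, Cxcl9, Cxcl10 and Cxcl16 were followed as 6 of the 18072 rows of a single-cell count table. They were taken by symbol, as every row bearing one of those names. The cells were sorted immune cells of the distal lung from mice at postnatal day 7 (P7) after hyperoxia, breathing of raised oxygen, which injures the developing lung. There were 598 cells of 1 female animal and 585 of 1 male animal, and each cell carried a label for 1 of 16 subtypes. All but 10 cells came from a gate on CD45, which marks cells of the blood lineage. Strain, oxygen level and exposure time are not given in the sources used here, and samples kept in normal air were not analysed here. No effect of hyperoxia was therefore estimated. With 1 animal of each sex, differences of sex and of animal cannot be told apart. Part of the female cells, such as 99 of 182 Mac III cells, came from a sequencing run without male cells. That run held only 1 female plate of CD45-sorted cells, so run and plate cannot be told apart for it. Differences between the animals therefore also include run and plate.

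Chemokines are small secreted proteins that guide leukocytes through G protein-coupled receptors. Cxcl1, Cxcl2 and Cxcl3 bind Cxcr2 and attract neutrophils, and their genes are induced rapidly through the transcription factor NF-kappaB. Cxcl9 and Cxcl10 bind Cxcr3 on activated T cells and NK cells and are induced by interferons. Cxcl16 is made as a membrane protein, can be shed by the proteases Adam10 and Adam17, and is the ligand of Cxcr6 on T cells and innate lymphocytes.

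The promoters of the first 5 genes are shown because they hold matches to motif types known from such induction. Whether induction of these genes runs through the matched letters was not tested. They come from the RefSeq promoter table on GRCm38.p6, in which 5 of the 6 members matched by symbol. All 5 lie on chromosome 5. Capitals mark matches on either strand to GGAATTTCC, a kappaB-type motif, or GAAANNGAA, an interferon response (ISRE-type) motif, within the 250 bases before the annotated start. Each stretch is printed 5′ to 3′ on the strand of the gene and runs 15 bases beyond the outer matches.
Cxcl1 (chr5:90891160-90891198, + strand): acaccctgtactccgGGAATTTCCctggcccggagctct
Cxcl2 (chr5:90903788-90903826, + strand): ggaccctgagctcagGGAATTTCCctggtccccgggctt
Cxcl3 (chr5:90786014-90786052, + strand): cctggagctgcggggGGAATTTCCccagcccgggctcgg
Cxcl9 (chr5:92328231-92328269, − strand): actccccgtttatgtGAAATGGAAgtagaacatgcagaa
Cxcl10 (chr5:92349024-92349117, − strand): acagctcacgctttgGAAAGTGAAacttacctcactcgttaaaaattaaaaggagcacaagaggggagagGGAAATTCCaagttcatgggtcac

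The same 9 letters, GGAATTTCC, began 70 bases before the start of Cxcl1, 96 bases before that of Cxcl2 and 72 bases before that of Cxcl3. In Cxcl10 the match lay on the other strand. Of 32851 promoter windows, 94 (0.286%) held this motif. The ISRE-type letters, found in Cxcl9 and Cxcl10, occurred in 7.13% of windows. Another motif, TTCNNNGAA (GAS-type, 7.02% of windows), had no match in the 5 promoters. The ISRE-type match of Cxcl10 lay upstream of its kappaB-type match and did not overlap it. These matches are descriptions of the letters and not measured binding sites.

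Levels are given as CPM, the reads of a gene relative to all reads of a library scaled to 1e+06, where a library is the sum over the cells of 1 animal and subtype. A cell is said to carry a gene with at least 10 reads. The 30 summed libraries of 15 subtypes held 6024429 to 235566546 reads, and single cells held 16753 to 7560179 with a median of 1100966. The single Mac I cell, a subtype seen only in the male, was left out of the tests. Own markers were checked by level, at 50 CPM in both animals. All were reached for Mac III (6 of 6 alveolar macrophage markers), Mac IV (5 of 5 interstitial macrophage markers, such as C1qa), Mac V (5 of 5 monocyte markers), neutrophils (5 of 5), DC I (4 of 4) and DC III (4 of 4, including Ccr7 and Fscn1). Mac II reached 1 of 5 monocyte markers, mast cell II 1 of 5 mast cell markers with 2 at 0 reads, DC II 3 of 4 and NK cells 3 of 4. The last 4 labels are used below only as names.

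The 6 chemokines fell into separate patterns. Cxcl16 was carried by 189 of 1183 cells and Cxcl2 by 150, whereas Cxcl1 was carried by 19 cells, Cxcl10 by 18, Cxcl3 by 7 and Cxcl9 by 2. Neutrophils held the largest share of the Cxcl2 reads, 43.7% of 217264 (94966 reads). Mac IV had 78245 of these reads and Mac III 26819. Mac IV held the largest share of Cxcl16 (52.6% of 181985), Cxcl10 (88.0% of 19077), Cxcl9 (99.2% of 2978) and Cxcl1 (45.2% of 9151). Mac III held 60.9% of the 6607 reads of Cxcl3.

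**Figure D1:**
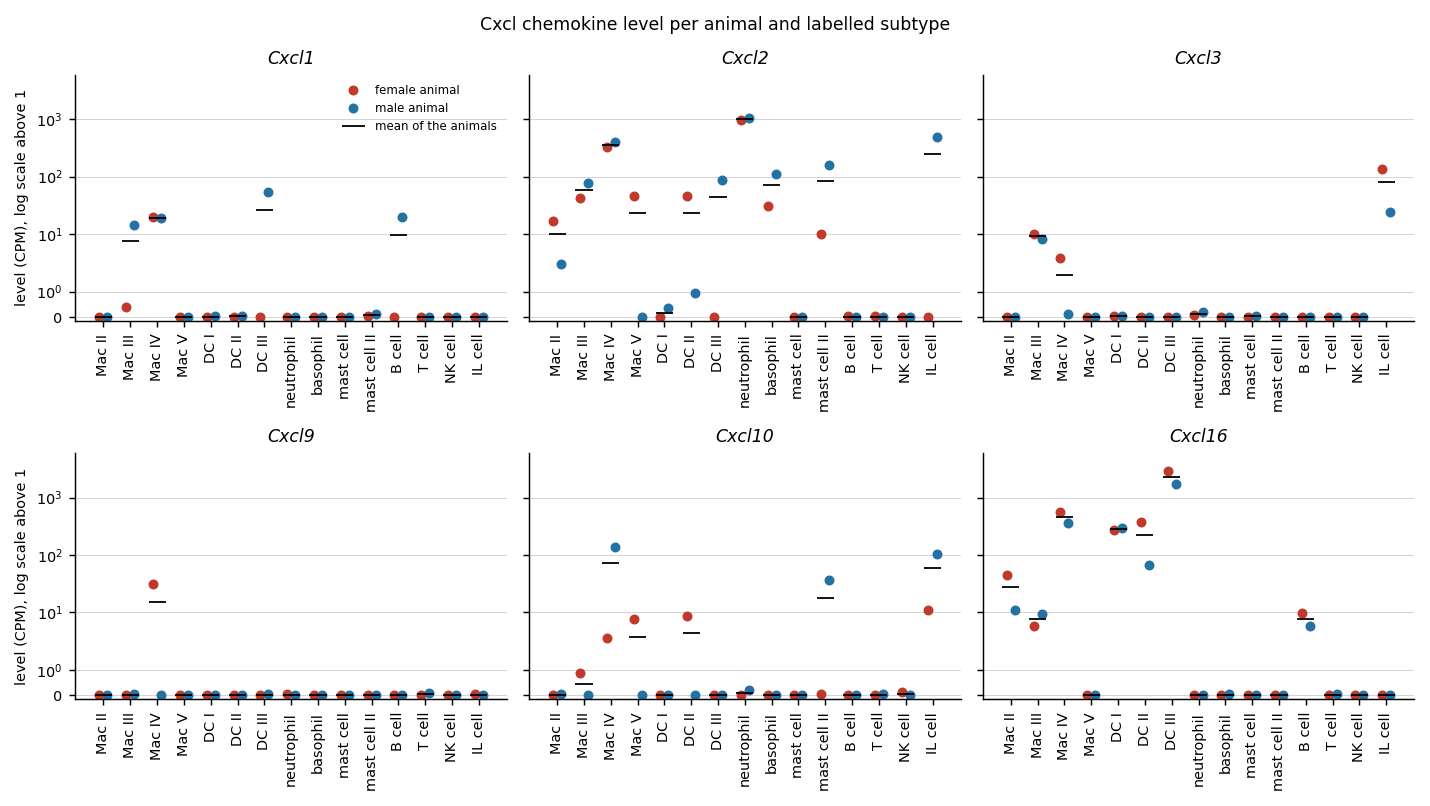
Level of each chemokine in CPM of the summed reads (y axis, linear from 0 to 1 and logarithmic above) in 15 labelled subtypes (x axis). Red points are the female animal, blue points the male animal and black lines their mean (n = 2). Cxcl2 stands at 961 and 1037 CPM in neutrophils and Cxcl16 at 2902 and 1702 CPM in DC III cells, while most other panels hold points at or near 0.

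Among the neutrophil attractants, Cxcl2 was highest in neutrophils, themselves its main target cell. The female neutrophils had 961 CPM and the male ones 1037 CPM, a mean of 998.8 ± 54.2 (SD, n = 2). Mac IV followed with 326 and 399 CPM (363 ± 51.7), and both neutrophil values lay above both Mac IV values. Over the 4 plates of CD45-sorted cells, neutrophils ran from 573 to 1480 CPM and Mac IV from 212 to 450 CPM, so the plates of the 2 subtypes did not overlap either. Mac III stood at 42.2 CPM (female) and 76.4 CPM (male). Mac V had 46.6 CPM in the female animal and 0 reads in the male, whose limit of 3 reads is 0.0652 CPM.

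Even in neutrophils most cells had no Cxcl2 read. Of the female neutrophils 22 of 56 carried it (39.3%, exact 95% interval 26.5% to 53.2%), and of the male ones 32 of 78 (41.0%, 30.01% to 52.7%). The carrying cells ran from 24.0 to 9863 CPM with a median of 1321 in the female, and from 80.9 to 9228 CPM with a median of 2506 in the male. The median over all neutrophils was 0 CPM in both animals. Of female Mac IV cells 14 of 63 carried Cxcl2 (22.2%, 12.7% to 34.5%) and of male ones 25 of 79 (31.6%, 21.6% to 43.1%), at medians of 1417 and 856 CPM among carriers. Over the whole series 20 cells had between 1 and 9 reads of Cxcl2 and 1013 had 0. Neutrophils had the lowest median depth of the 16 subtypes, 589006 reads a cell, and those with Cxcl2 had a median of 607510. The part of depth in these shares was not tested.

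**Figure D2:**
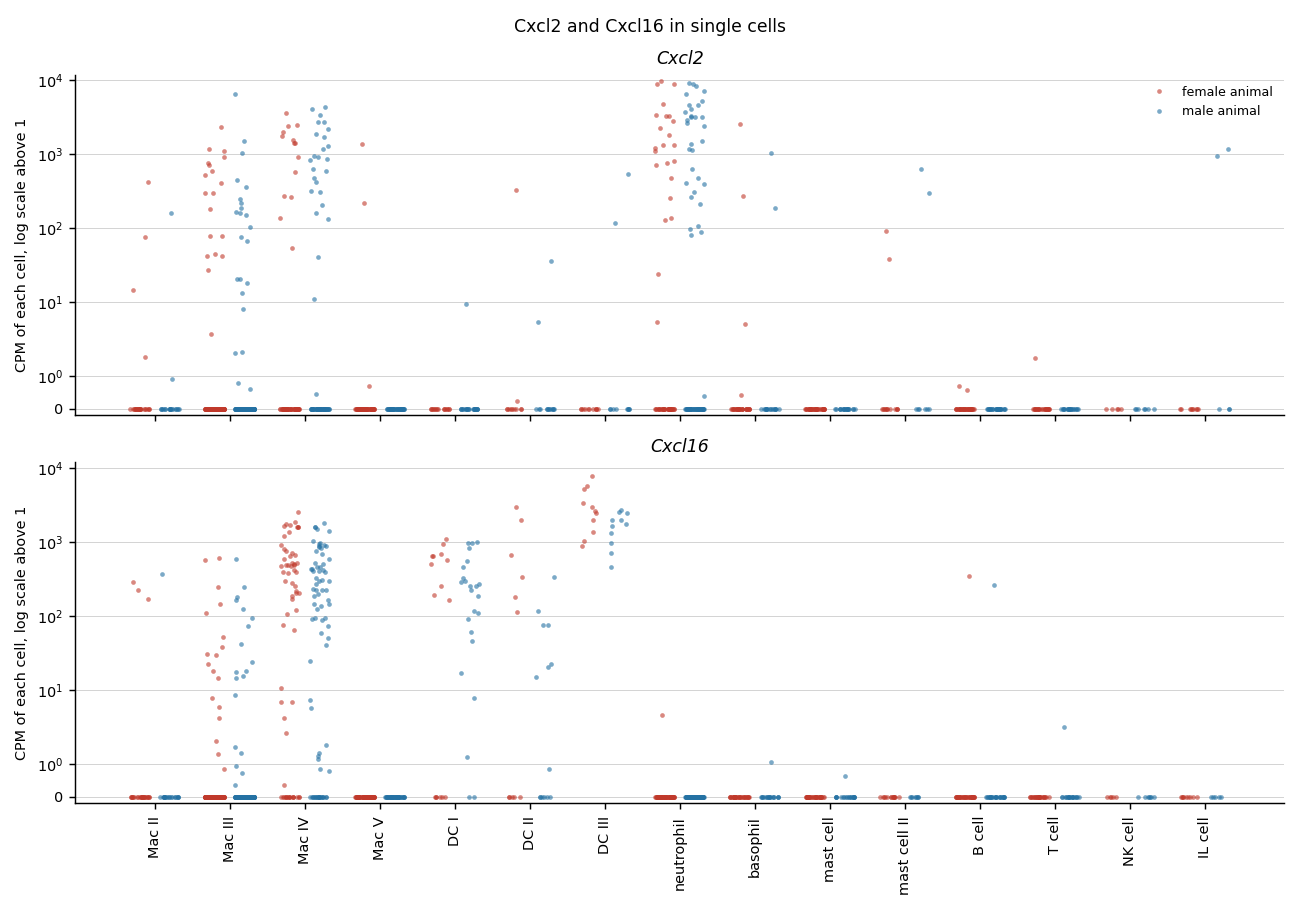
CPM of Cxcl2 (upper panel) and Cxcl16 (lower panel) in each cell (y axis, linear from 0 to 1 and logarithmic above) by labelled subtype (x axis). Red points are cells of the female and blue points cells of the male, spread sideways at random. Cxcl2 divides neutrophils, Mac IV and Mac III into cells at 0 and cells up to 9863 CPM, whereas every DC III cell lies above 450 CPM of Cxcl16.

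Outside neutrophils and macrophages the level of Cxcl2 rested on very few cells. IL cells, which carry innate lymphoid markers, had 0 reads in the 9 female cells and 499 CPM in the male, where 2 of 5 cells carried the gene. Basophils stood at 31.1 and 110.9 CPM, with 2 carrying cells in each animal. Mast cells had 0 reads in both animals, from 39 and 20 cells, which allows shares of up to 7.69% and 15% when 3 cells are taken as the limit (exact upper limits 9.03% and 16.8%). Mast cell II had 2 carrying cells in each animal and 9.92 and 158 CPM. B cells had 2 reads, T cells 1 read and NK cells 0 reads over both animals. From rank 2 to rank 10 of the order of levels (Mac IV, IL cell, mast cell II, basophil, Mac III, DC III, Mac V, DC II, Mac II), the animals of each subtype overlapped those of the next.

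Single cells set many of these values. Of 18 summed libraries with at least 10 reads of Cxcl2, 13 drew at least 50% of them from their highest cell. In the female 1 Mac V cell gave 93.5% of the Cxcl2 reads of that subtype (3644 reads), and without it the level was 3.14 CPM. In DC II of the female 1 cell gave 99.8%. In male Mac III 1 cell of 208 gave 59.4%, and without it the level was 31.2 CPM, below the 42.2 CPM of the female. Neutrophils depended less on 1 cell: 28.7% of the reads in the female and 16.2% in the male came from the highest, and the levels without it were 726 and 889 CPM.

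**Figure D3:**
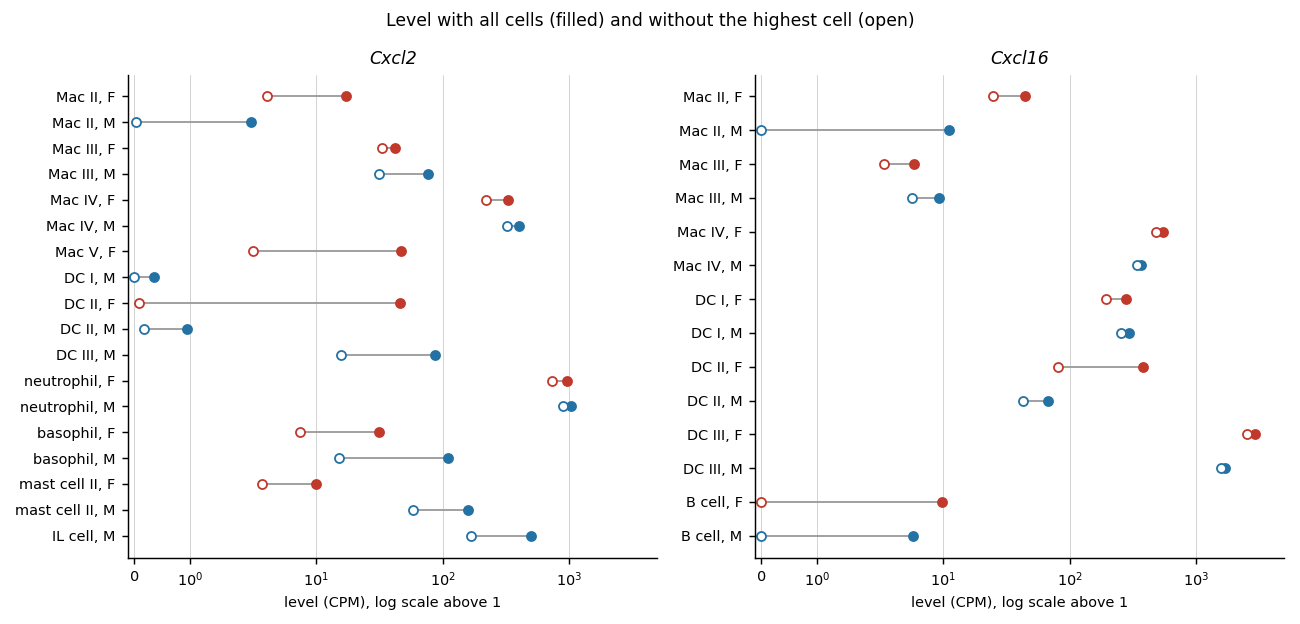
Level of Cxcl2 (left) and Cxcl16 (right) in CPM (x axis, linear from 0 to 1 and logarithmic above) for every summed library with at least 10 reads of the gene (y axis, F female and M male). Filled points use all cells and open points leave out the cell with the most reads. The Cxcl2 levels of neutrophils (726 and 889 CPM without that cell) and the Cxcl16 levels of DC III (2540 and 1582 CPM) stay highest, whereas Cxcl2 falls to 0.0881 CPM in female DC II and from 87.2 to 15.5 CPM in male DC III, and Cxcl16 falls to 0 in B cells.

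Cxcl1, which like Cxcl2 signals through Cxcr2, had no read in neutrophils of either animal. Mac IV was the only subtype where both animals exceeded 1 CPM (20.1 CPM female, 18.8 CPM male, 19.4 ± 0.864). It was carried there by 2 of 63 and 7 of 79 cells. Female DC III had 0 reads and male DC III 53.7 CPM, where 4 of 11 cells carried it (36.4%, 10.9% to 69.2%). In male Mac III, at 14.7 CPM against 0.397 CPM for the female, 75.7% of the reads came from 1 cell. All 633 Cxcl1 reads of B cells came from 1 male cell, which also had at least 3 T cell markers at 50 CPM. Over both animals 8 subtypes had 0 reads.

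Cxcl3 was the most restricted of the 3 Cxcr2 ligands. Its 7 carrying cells were 2 Mac III, 1 Mac IV and 4 IL cells, and 3 cells held 90% of its reads. The highest was a female Mac III cell with 2107 reads (3769 CPM). Female IL cells reached 137 CPM, 99.4% from 1 cell, and male IL cells 24.1 CPM, 58.3% from 1 cell. Both IL cell values lay above the 10.1 and 8.12 CPM of Mac III, where 1 cell in each animal gave 99.8% and 99.7% of the reads.

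Some cells carried more than 1 of the Cxcr2 ligands. Of 19 cells with Cxcl1, 11 also carried Cxcl2, and of 7 cells with Cxcl3, 5 also carried Cxcl2. Within Mac IV, 6 of the 9 cells with Cxcl1 carried Cxcl2, as did 39 of all 142 Mac IV cells, a difference that was not tested. Only 1 cell of the series carried both Cxcl1 and Cxcl3, and of the 150 cells with Cxcl2, 11 carried Cxcl1. 1 male Mac III cell was the highest of the whole series for Cxcl1, with 2615 reads. It was also the highest male Mac III cell for Cxcl2 (10685 reads) and Cxcl3 (1908 reads), and it had 291 reads of Cxcl16. It showed no set of 3 markers of another class. Over the 6 genes, 868 cells carried none, 259 carried 1, 44 carried 2, 10 carried 3 and 2 carried 4. Of the distinct 30-base stretches in GENCODE M21 transcripts, 7.79% of those of Cxcl2 and 4.67% of those of Cxcl3 occurred in another member, and none of those of Cxcl1. These are shares of sequence and not of reads. How many Cxcl2 and Cxcl3 reads came from shared stretches was not tested, nor was their part in the cells carrying both.

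The interferon-induced pair was rare. Cxcl9 was carried by 2 cells, both Mac IV of the female, which gave 30.9 CPM there against 0 reads in the male (limit 0.0255 CPM). The higher of the 2 held 2281 of the 2978 reads in the series. Cxcl10 stood at 3.62 CPM in female Mac IV, with 2 carrying cells, and at 139 CPM in male Mac IV, with 6. In the male 93.4% came from 1 cell with 15346 reads (8921 CPM), and without it the level was 9.36 CPM. Female IL cells stood at 10.9 CPM (1 of 9 cells) and male IL cells at 106 CPM (3 of 5 cells). Of the 8 Mac IV cells with Cxcl10, 3 had markers of another class, as did 1 of the 2 with Cxcl9. Elsewhere Cxcl10 reached 10 reads in 1 cell each of Mac V, DC II, neutrophils and mast cell II, and in 2 of Mac III. No cell carried both Cxcl9 and Cxcl10.

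**Figure D4:**
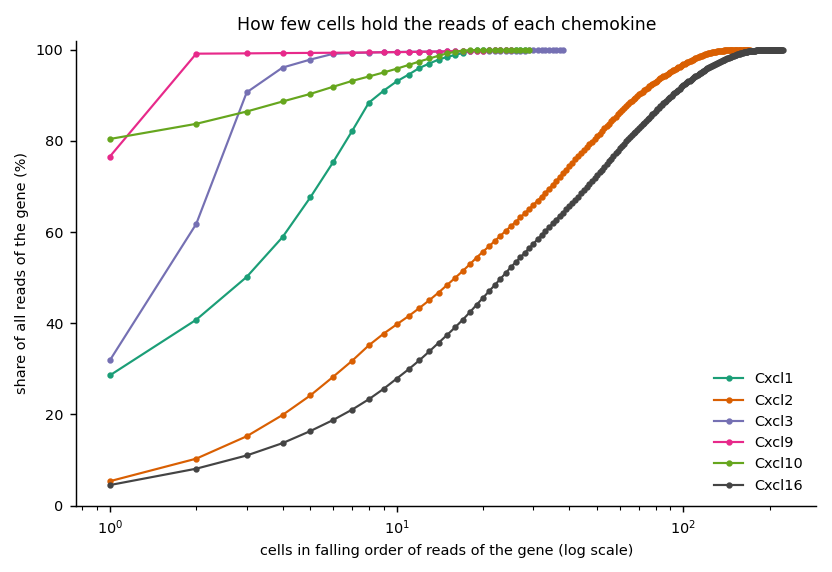
Cumulative share of all reads of each gene (y axis, percent) against the number of cells in falling order of reads (x axis, log scale), over all 1183 cells. A single cell holds 80.4% of the Cxcl10 reads and 76.6% of the Cxcl9 reads, while 17 cells are needed for 50% of Cxcl2 and 24 for 50% of Cxcl16.

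Other genes in these cells were read from lists of induced genes. Of the Mac IV cells with Cxcl10, all 2 female and 4 of 6 male cells also carried Irf7, a transcription factor of the interferon response, which 11 of 63 and 20 of 79 Mac IV cells carried in all. Irf1, another such factor, was present in 1 of the 2 female and 4 of the 6 male cells, against 29 of 63 and 49 of 79 of all Mac IV cells. A further 12 genes of the interferon list were each found in 0 to 2 of the 2 female cells and in 1 to 3 of the 6 male cells. Of all Mac IV cells, 0 to 20 of 63 female and 4 to 21 of 79 male cells carried each of these 12. Ifit3 and Gbp3 were in 3 of the 6, against 16 and 20 of all 79. Isg15 and Ifit1, classical targets of type I interferon, were in 1 of the 6, against 8 and 6 of all 79. The 2 cells with Cxcl9 carried no Irf1 or Irf7. Both carried Gbp2, a guanylate-binding protein, against 12 of all 63 female Mac IV cells. In neutrophils with Cxcl2, the cytokine gene Il1b was present in 19 of 22 female and 28 of 32 male cells, against 44 of 56 and 57 of 78 of all neutrophils. Tnf was present in 0 of 22 and 5 of 32 (2 of 56 and 9 of 78 of all neutrophils). Tnfaip3, a feedback inhibitor of NF-kappaB, was present in 5 of 22 and 10 of 32 (10 of 56 and 17 of 78 of all). Tnf was thus less frequent among carrying cells in the female and more frequent in the male. Clec4e and Sod2, from the same list of genes induced through NF-kappaB, were less frequent among carrying cells in both animals. Clec4e was present in 5 of 22 and 8 of 32 (16 of 56 and 23 of 78 of all). Sod2 was present in 1 of 22 and 5 of 32 (4 of 56 and 15 of 78 of all). The rest of that list is not given here for these cells. None of these differences between carrying cells and all cells was tested.

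Cxcl16 was the most evenly carried of the 6. Every DC III cell carried it, 11 of 11 in each animal (exact interval 71.5% to 100%). Female DC III cells ran from 882 to 7910 CPM with a median of 2611, and male ones from 457 to 2740 CPM with a median of 1760. The summed levels were 2902 and 1702 CPM (2302 ± 848), both above those of every other subtype. Of these cells 2 of the female were sorted outside the CD45 gate, and within the gate the mean of the animals was 2253 CPM.

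Mac IV was next with 551 and 366 CPM, carried by 41 of 63 female cells (65.1%, 52.0% to 76.7%) and 51 of 79 male cells (64.6%, 52.99% to 74.999%). DC I followed with 277 and 297 CPM, carried by 10 of 16 and 21 of 24 cells, and both of its values lay below both of Mac IV. DC II stood at 380 and 67.2 CPM and overlapped DC I, and 82.2% of its reads in the female came from 1 cell. Mac II stood at 44.5 and 11.2 CPM from 3 and 1 carrying cells, of which 3 of 4 had markers of another class. Mac III stood at 5.88 and 9.22 CPM, carried by 11 of 182 and 14 of 208 cells. The Cxcl16 reads of B cells came from 1 cell in each animal, and 1 of these had interstitial macrophage markers.

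Several leukocytes had next to no Cxcl16. Mac V, IL cells, NK cells and mast cell II had 0 reads in both animals. For Mac V this came from 66 and 45 cells, which allows shares of up to 4.55% and 6.67% by the limit of 3 cells (exact upper limits 5.44% and 7.87%). Neutrophils, basophils, mast cells and T cells had 1 read each. In the annotation (GRCm38, chr11:70453983-70459984, − strand) Cxcl16 overlaps Zmynd15 on the opposite strand, and 552 of its 3021 exon bases (18.3%) are also exon of that gene. Use of strand in the counting is not stated, so reads from that stretch cannot be told apart. Zmynd15 stood at 2669 and 2105 CPM in DC III, 58.9 and 92.0 CPM in DC I and 31.2 and 37.1 CPM in Mac IV. Over the 30 libraries the 2 genes correlated at Pearson's r = 0.84. Cxcl16 was carried by 189 cells, Zmynd15 by 63 and both by 56. The part of Zmynd15 in the Cxcl16 level was not tested. Cxcl10 overlaps Art3 over 133 of its 2252 exon bases, and Art3 stood at 0.859 and 2.28 CPM in Mac IV.

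Subtypes were then compared by the quasi-likelihood F test of edgeR, with p adjusted by Benjamini-Hochberg over 15600 genes. Of the 6 members 5 passed the filter on low counts, and Cxcl9 did not. Cxcl16 was the only member called in any of the 5 comparisons.

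Between neutrophils and Mac III, 1 of 5 members was called, where 1.41% of all genes were. Cxcl16 was lower in neutrophils (adjusted p = 0.00499), with 1 read over both animals against 3402 in Mac III, a ratio of 724 in CPM with an exact counting interval of 130 to 28606. Cxcl2 was not called (log2 fold change 4.54 ± 2.90, SE, adjusted p = 0.459). Its levels of 961 and 1037 CPM against 42.2 and 76.4 CPM did not overlap between the subtypes, in a fit whose common biological coefficient of variation was 1.15. A fit of the neutrophil and Mac III libraries alone gave adjusted p = 0.0212 for Cxcl2 and 0.0886 for Cxcl16. The Cxcl16 call was also lost without cells that had markers of another class (adjusted p = 0.121) and without the highest Cxcl16 cell of each library (0.0993).

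Between Mac IV and Mac III, 1 of 5 members was called, against 0.263% of all genes. Cxcl16 was higher in Mac IV by 5.87 ± 1.18 on the log2 scale (adjusted p = 0.0489). With the animal as a block the adjusted p was 0.0549, and the call was lost when any 1 of the 4 libraries was left out (0.133 to 0.779). It was lost as well on the sequencing run shared by both animals (0.116), with equal weight for every cell (0.123), without cells with markers of another class (0.562) and without the highest cells (0.352). Over all 14 refits the log2 difference lay between 5.33 and 6.43, and it was 6.43 without the highest cells. The Cxcl2 difference was 2.57 ± 2.66 (adjusted p = 1), and with these subtypes alone its adjusted p was 0.0145.

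Between Mac V and Mac IV, 1 of 5 members was called, against 0.167% of all genes. Cxcl16 was lower in Mac V (adjusted p = 0.00103), with 0 reads over both animals against 95733 in Mac IV. Set at a limit of 3 reads over the group, Mac V would stand 19401-fold lower. That figure covers counting of reads only, not the share of cells that could carry the gene, and is no lower bound on the difference. The call was lost without the female Mac V library (adjusted p = 0.105), without the male one (0.0724), without cells with markers of another class (0.0602) and without the highest cells (0.0594). Cxcl2 stood at 46.6 and 0 CPM in Mac V against 326 and 399 CPM in Mac IV and was not called (log2 −3.85 ± 2.81, adjusted p = 0.732). Cxcl1 had 0 reads in Mac V and was not called (adjusted p = 0.417), and DESeq2 called 3 members here, Cxcl1 and Cxcl9 besides Cxcl16.

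Mast cells and basophils, both granulocytes armed with IgE receptors, gave 0 calls of 5 members by edgeR, against 1.71% of all genes. At an unadjusted p under 0.05 there was 1, Cxcl2. It had 3716 reads in basophils and 0 in mast cells (edgeR, adjusted p = 0.131). The basophil level was 1603-fold above a limit of 3 reads in mast cells. That figure covers counting of reads only, not the share of cells that could carry the gene, and is no lower bound on the difference. DESeq2 called it (adjusted p = 1.62e-16), as did a fit of these 2 subtypes alone (0.0198). Of 14 alternatives, 12 left it uncalled. For mast cells against basophils the log2 fold change was −27.6 by DESeq2 and −15.2 by edgeR, with 0 reads in mast cells. In basophils 4 cells carried the gene. The highest gave 76.5% of the reads in the female and 87.7% in the male, and 1 of the 4 had endothelial markers.

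Between DC III and the average of DC I with DC II, 1 of 5 members was called, against 7.22% of all genes. Cxcl16 was higher in DC III by 3.42 ± 0.813 on the log2 scale (adjusted p = 0.0177). The call was lost without the female DC III, male DC II, female DC I or male DC I library (adjusted p = 0.0653 to 0.0817). It was also lost without cells with markers of another class (0.237) and without the highest cells (0.0637). Over all 16 refits the log2 difference lay between 3.09 and 4.35, the latter without the highest cells. The Cxcl2 difference was 4.802 ± 2.25 (adjusted p = 0.209), with reads in DC III of the male only. Cxcl1 had 840 reads in DC III and 2 in DC I and DC II together (adjusted p = 0.0672).

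The receptors of these ligands were read from a list of 8, of which 7 were analysed here and 6 passed the filter. Cxcr2, the receptor of Cxcl1, Cxcl2 and Cxcl3, was highest in neutrophils (1001 and 755 CPM, carried by 42 of 56 and 66 of 78 cells) and next in basophils (436 and 351 CPM). It was higher in neutrophils than in Mac III (log2 6.497 ± 1.62, adjusted p = 0.0489) and lower in mast cells, with 2 reads over both animals, than in basophils (adjusted p = 0.00164). It was also called between DC III, with 0 reads, and the average of DC I with DC II (adjusted p = 0.0385). DC I had 5 reads, so that call rests on DC II (125 and 8.46 CPM), where 1 cell gave 90.6% of the reads. Of neutrophils carrying Cxcl2, 19 of 22 and 28 of 32 also carried Cxcr2. Cxcr3, the receptor of Cxcl9 and Cxcl10, stood at 485 and 473 CPM in NK cells, 458 and 304 CPM in DC I and 83.3 and 130 CPM in T cells, and was not called. Cxcr6, the receptor of Cxcl16, stood at 1736 and 1895 CPM in IL cells, carried by 8 of 9 and 5 of 5 cells. In NK cells it stood at 1581 and 435 CPM, where 1 cell gave 83.2% of the reads over both animals. Both subtypes had 0 reads of its ligand, as did Mac V and mast cell II. Cxcr4 was the other receptor called, lower in mast cells than in basophils (adjusted p = 0.00974).

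Of 15 inflammatory genes induced through NF-kappaB, 3 were higher in neutrophils than in Mac III (Nfkbiz, Nfkbid and Zfp36) and 0 lower, where 1.41% of all genes were called. The list median was 2.28 on the log2 scale beside −0.22 for all genes. Nfkbiz, which encodes an inhibitor-like protein that promotes some NF-kappaB targets, was higher there by 6.72 ± 1.10 (adjusted p = 0.00201). In DC III 2 were higher than in DC I and DC II, Nfkbia (2.81 ± 0.529) and Tnfaip3 (4.02 ± 0.790), and Il1b was lower, where 7.22% of all genes were called. The list median there was −0.11 beside −0.41 for all genes. In mast cells Nfkbia and Il1b were lower than in basophils, where 1.71% of all genes were called, with a list median of −2.85 beside 0.15. None of the 15 was called between Mac IV and Mac III, with a list median of 1.97 beside −0.0023 for all genes. None was called between Mac V and Mac IV either, with a list median of −0.22 beside −0.069. Of 15 interferon-induced genes, 3 were higher in DC III (Irf1, Gbp2 and Gbp5, with Irf1 at 4.51 ± 0.877), again where 7.22% of all genes were called. The median of that list in DC III was −0.60, below the −0.41 of all genes. None of the list was called in the other 4 comparisons. Its median was 5.38 beside −0.0023 for Mac IV against Mac III and 0.31 beside −0.069 for Mac V against Mac IV. It was 1.26 beside −0.22 for neutrophils against Mac III and 1.24 beside 0.15 for mast cells against basophils. The proteases Adam10 and Adam17 were called in none of the 5, and neither were the 6 other Cxcl ligands tested.

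The genes with the most similar pattern were ranked by Pearson's r of log2(CPM + 1) over the 30 libraries, among 11547 candidates, as a description. The libraries of an animal share its plates, and levels set by 1 cell carry that cell's other genes with them. For Cxcl16 they were Pdgfa (r = 0.91), Arhgap22 (0.89) and H2-Aa (0.87), an MHC class II gene. Those of Cxcl2 were Epas1 (0.73), Emcn (0.65) and Inhba (0.65). Epas1 was uneven between the neutrophil libraries, with 9.13 CPM (female) and 208 CPM (male). For Cxcl3 they were Fam83a (0.85), Lingo4 (0.84) and Csf2 (0.83), a growth factor gene at 761 and 241 CPM in IL cells. For Cxcl1 they were Nuak1 (0.85), Rab34 (0.76) and Cdkn2b (0.75), for Cxcl9 Aspa (0.89), C4b (0.88) and Wnt2 (0.82), and for Cxcl10 Npnt (0.78), Pigz (0.70) and Hbegf (0.66).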

How the data were processed

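Cells were sorted into plates and libraries made with the Tn5 transposase, per the labels' protocols. The authors deposited raw read counts, 1 column for each cell, without molecular identifiers. STAR 2.5.2b, HTSeq 0.10 and GRCh38, a human build, are named in the submitters' processing notes, although the gene symbols are those of the mouse. The strand setting is not given in the sources used here. Subtype, animal, gate, plate and sequencing run came from the labels, which do not say how subtypes were assigned. Expression in these same cells may have set them.

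Counts were summed per animal and subtype, for the 15 subtypes that had 5 or more cells from both animals. edgeR 4.0.16 (R 4.3.3) was run with TMM, filterByExpr and 1 coefficient per subtype, over all 30 libraries, and 15600 genes were tested. Genes with an adjusted p under 0.05 were called. SE is the log2 fold change divided by the square root of F. CPM was computed here from the totals of the table. Intervals are exact Clopper-Pearson at 95%, and intervals and limits of 3 reads cover counting error only. Each animal gave all of these 15 subtypes, so libraries pair by animal. The female-minus-male difference of a subtype correlated with that of another at a median of 0.0249 (−0.0602 to 0.0757, 105 pairs). Reads of a cell are not independent molecules, and p-values measure the spread between 2 animals, which includes the sequencing run found in the female only. No doublet caller was run. A cell was said to have markers of another class with at least 3 of that class at 50 CPM (125 cells). Highest cells are those with the most reads.

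The named genes are the 6 members, listed ligands and receptors with reads, genes of the induced lists, and for each member the 3 with the highest Pearson correlation over the libraries. For those, at least 20 CPM in 1 library was required, and predicted genes (Gm with a digit, Rik, -ps) were passed over. Members, lists and comparisons were chosen with earlier results of these data known. Cxcl5, Cxcl11 and Cxcr1 were not analysed here, and 1 gene of the interferon list is not reported here by name. DESeq2 1.42.0, RLE factors, no filter, the animal block, subsets of cells and libraries, and a depth of 100000 reads were alternatives.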

Additional observations from a re-analysis of the deposited data

Results flagged for a closer look

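Among groups of 4 to 10 cells, 7 combinations of a gene with a group had a carrying cell, and in 4 of them 1 cell stood far above the rest. These were Cxcl3 in IL cells of the female (1108 CPM, 1 of 9 cells) and of the male (118 CPM, 1 of 5 cells), Cxcl10 in IL cells of the female (85.8 CPM, 1 of 9 cells) and Cxcl10 in mast cell II of the male (264 CPM, 1 of 8 cells). By chance about 1 independent group in 20 would be marked in this way, for values without the many zeros that these have. The 7 combinations share the cells of female IL cells, male IL cells and male mast cell II, so they are not independent and that rate does not apply to them.

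The single Mac I cell, which entered no comparison, stood at 426 CPM of Cxcl2 (1039 reads) and 302 CPM of Cxcl16 (736 reads). It also had at least 3 interstitial macrophage markers at 50 CPM or more.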

How the results depend on the processing

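Calls on single members were often lost in refits. The direction of Cxcl16 held in every alternative of its 4 calls, and of 58 such refits 22 lost the call, while the log2 difference stayed within 5.33 to 6.43 for Mac IV against Mac III and 3.09 to 4.35 for DC III. Of the 67 alternative counts of called members, 44 were the same as the main count. Between neutrophils and Mac III DESeq2 called 2 members, and 0 were called without cells with markers of another class. Between Mac IV and Mac III 0 were called with the animal as a replicate block, with equal weight for every cell, on the shared run, without marker cells and with any library left out (0 to 0), and 2 with the contrast's subtypes alone. For Mac V against Mac IV the count was 3 by DESeq2, 2 with those subtypes alone, 0 without marker cells and 0 to 1 leaving out a library. For mast cells against basophils it was 1 by DESeq2 and 1 with those subtypes alone. For DC III it was 0 without marker cells and 0 to 1 leaving out a library, and the log2 fold change of Cxcl2 there ran over the left-out libraries from −9.63, a reversal without male DC III, to 7.97 without male DC I, and was 9.11 without the highest cells. The animal block changed no other call. The cause of these changes was not tested.

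Of 42 alternative levels and 42 alternative shares, 39 and 38 moved by no more than the SD of the animals, an SD that is large where 1 animal was at or near 0. The Cxcl2 level in neutrophils was 1104 CPM as a mean over cells, 808 CPM without the highest cells and 1275 CPM without marker cells. Its share was 41.7% at 1 read, 41.4% after thinning to 100000 reads and 42.6% without marker cells. The share of IL cells with Cxcl3 fell from 31.1% to 15.6% at 50 CPM. Without the highest cell of each animal, Cxcl10 in Mac IV fell from 71.5 to 5.21 CPM and Cxcl3 in IL cells from 80.6 to 6.17 CPM.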

Other observations

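Among the other Cxcl ligands, Pf4, a chemokine best known from platelets, stood at 4729 CPM in Mac IV of the female and 8575 CPM in the male and was carried by 54 of 63 and 77 of 79 cells. The highest Mac IV cell gave 3.10% of its reads there. The platelet genes Itga2b and Gp9, chosen after the values of Pf4 were seen, stood at 4.65 and 1.70 CPM and at 0 and 2.18 CPM in the same libraries. Ppbp, another platelet chemokine, stood at 209 and 34.1 CPM in Mac IV, where 1 cell gave 76.3% of its reads over both animals. Pf4 was higher in Mac IV than in Mac III by 14.22 ± 3.09 on the log2 scale and did not pass the adjustment (edgeR, adjusted p = 0.0950).

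Cxcl14 was highest in Mac II (8.82 and 41.0 CPM), where 6 of 27 and 7 of 20 cells carried it. Cxcl12 was highest in Mac IV (44.7 and 7.27 CPM, 2 carrying cells in each animal), Cxcl13 in DC II (15.01 and 0 CPM, 1 cell) and Cxcl15, a chemokine known from lung epithelium, in DC I (0 and 67.0 CPM, 2 cells of the male). Cxcl17 had no carrying cell in Mac II, its highest subtype.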
